A study of Mus musculus with 6 samples.

Results

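The genes of homologous recombination and of the Fanconi anaemia pathway were compared between MOSE-NEO and MOSE-PAX8, both lines of mouse ovarian surface epithelial cells. The set held 35 genes, listed by symbol and matched to the Ensembl identifiers of the count tables, out of 25006 identifiers in all. All 35 were present in the tables and passed the filter on low counts. MOSE-PAX8 cells overexpressed the transcription factor PAX8, and MOSE-NEO was the reference line. Both were kept as stable lines under the antibiotic G418 at 0.05 mg/mL, with 3 total-RNA libraries from each. How the stable cells were derived, and whether a line was 1 clone, was not given in the sources used here. A difference between the lines may therefore belong to PAX8 or to the line, and the 2 cannot be told apart here.

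Homologous recombination repairs DNA double-strand breaks from an intact copy of the sequence. The broken ends are trimmed to single strands, the BRCA1, PALB2 and BRCA2 proteins prepare those strands to pair with the intact copy, and helicases and nucleases undo the joined molecules. The Fanconi anaemia pathway handles crosslinks between the strands: a core complex acts as a ubiquitin ligase on the FANCD2 and FANCI pair, which brings in nucleases and hands the break to recombination. In ovarian surface and fallopian tube epithelium these genes are known for their inherited mutations in ovarian cancer, and many of them are transcribed mostly in dividing cells.

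Pax8, the gene that checks the labels, was counted 0, 1 and 1 times in MOSE-NEO and 2570, 2973 and 3544 times in MOSE-PAX8. The libraries held between 23623762 and 36367825 counts, with 14397 to 15578 genes detected. Replicate 1 of MOSE-NEO and replicate 2 of MOSE-PAX8 stood apart in their share of counts from lincRNA genes, 0.317% and 0.33%, beside 0.146% to 0.195% in the other 4. Of the 12 markers listed for ovarian surface epithelium and mesothelium, 10 reached 1 CPM (counts scaled to library size) in both lines, with Krt8 and Krt19 under it, and their sum was 14960 to 16590 CPM in MOSE-NEO and 8752 to 10200 CPM in MOSE-PAX8. Endothelial markers summed to 1.53 CPM or less in each library, with Cdh5, Erg and Cldn5 at 0. Leukocyte markers summed to 17.2 CPM or less, with Adgre1 and Tyrobp among those at 0. Of 10 leukocyte markers, 2 reached 1 CPM in MOSE-NEO and 3 in MOSE-PAX8. Of the 3 tested, 1 was higher and 1 lower in MOSE-PAX8 at an adjusted p below 0.05. Their log2 fold changes ran from -1.33 to 6.95. Granulosa and theca markers summed to 554.8 to 724.3 CPM, with Lhcgr, Cyp19a1 and Fshr at 0. Of these 10 markers, 3 reached 1 CPM in MOSE-NEO and 4 in MOSE-PAX8. Of the 4 tested, 1 was higher and 2 lower in MOSE-PAX8 at the same threshold. Their log2 fold changes ran from -0.39 to 6.83. Listed fibroblast markers, mainly collagens, summed to 30630 to 36150 CPM in MOSE-NEO and 16330 to 17890 CPM in MOSE-PAX8, with Pdgfra, Pdgfrb, Postn, Lum and Cspg4 under 1 CPM. The part of these marker sums in the results was not tested.

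Of the 35 genes, 12 rose and 1 fell in MOSE-PAX8 at an adjusted p below 0.05 in edgeR's quasi-likelihood test with Benjamini-Hochberg adjustment over 12313 genes. The genes that rose were Blm, Rad54l, Fancf, Fanci, Rad51b, Palb2, Fancm, Fancb, Chek1, Fancl, Fancd2 and Exo1, by 1.26-fold to 1.66-fold, and Rad51d fell 1.29-fold. Over all tested genes, 34.0% were called, 17.9% as higher and 16.1% as lower, so the members' share called higher, 34.3%, lay above the background and their share called lower, 2.86%, under it. Their median log2 fold change was 0.20 (range -0.37 to 0.73) beside 0.01 over all tested genes. Of the 35, 29 had a log2 fold change above 0, which is 82.9% beside 51.1% of tested genes. The libraries of the lines did not overlap for 20 members, 17 of them higher and 3 lower, where 47.6% of tested genes did not overlap and 25.3% did so as higher. Measured relative to 23 proliferation markers, whose median log2 fold change was 0.26, the members' median turned to -0.06 and that of all genes to -0.25. On that scale 3 members were higher (Blm, Fanci and Rad54l) and 4 lower (Rad51d, Fan1, Mre11a and Rad50). Each gene is lowered by the same amount there, and of all 12313 tested genes 1175 were higher and 5185 lower. In bulk RNA, more dividing cells and more RNA per cell cannot be told apart.

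The count of 12 higher members depended on single libraries. It was 4 without replicate 3 of MOSE-PAX8, 7 without replicate 3 of MOSE-NEO and 8 or 9 without any 1 of the other libraries. Leaving out the lincRNA-rich pair, which leaves 2 libraries per line, also left 4. Higher calls fell over all genes too, from 2208 of 12313 to 1575 of 12467 without replicate 3 of MOSE-PAX8. They were 1848 of 12277 without the pair. In both of these fits the members' share called higher was under that of all genes. The same 8 genes lost their call in both fits, but their log2 fold changes stayed near those with all libraries (0.33 to 0.59): 0.28 to 0.65 without the pair and 0.32 to 0.58 without replicate 3 of MOSE-PAX8. Blm, Fanci, Rad54l, Fancm and Rad51d were called with each library left out in turn and without that pair. Rad51d was the lower member in each of these fits.

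**Figure D1:**
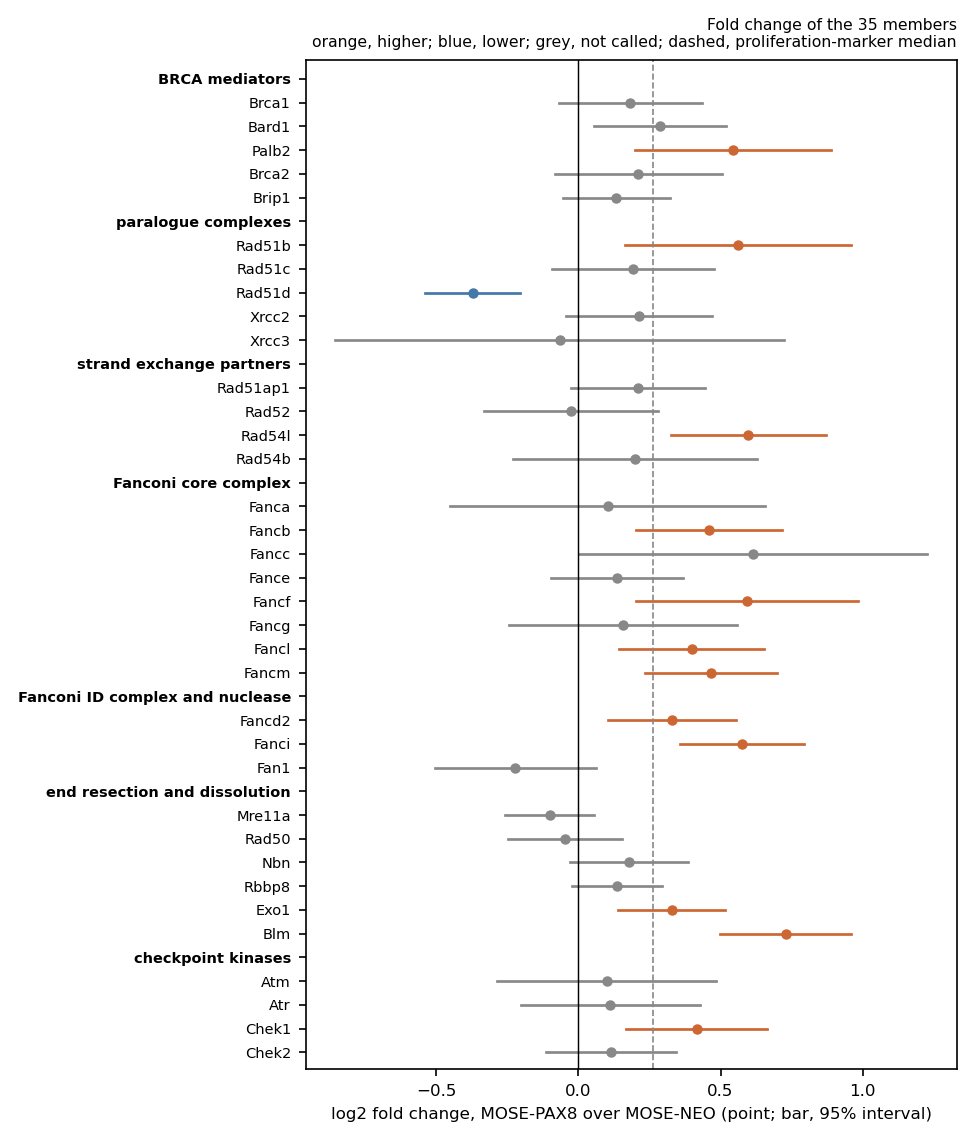
Log2 fold change of MOSE-PAX8 over MOSE-NEO for the 35 genes, grouped by role. Points are estimates from 3 libraries per line and bars are 95% intervals. Most points lie to the right of 0, 12 in orange were called higher and Rad51d in blue lower. The dashed line is the proliferation-marker median of 0.26, and relative to it the set's median turns to -0.06.

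Promoter sequence was taken from the RefSeq table of 300-base windows on GRCm38.p6, 250 bases before to 50 after a start site, which matched 27 of the 35 genes with 30 windows. Nbn, Rad51d, Fancd2, Rbbp8, Xrcc2, Exo1, Rad50 and Rad54b were not matched. Both strands were searched for E2F-type motifs, bound by the E2F factors of the cell cycle, in the spellings TTTCCCGC, TTTGGCGC, TTTCGCGC and TTTGCCGC. They were found in 6 of the 30 windows (20.0%), beside 2.26% of 32851 windows in the table and 3.93% of 12405 windows of tested genes. Windows of Rad51c were counted separately. By gene, the motifs were in 5 of 27 (18.5%), beside 2.6% of genes in the table and 4.76% of tested genes. The proliferation markers had them in 25.0% of 20 windows. The windows with a motif belonged to Bard1, Brca2, Chek2, Fancg and Rad51c, and none of these 5 genes was called. Their log2 fold changes ran from 0.12 to 0.29 with a median of 0.19, while the 22 genes without these spellings had a median of 0.30 and 10 called higher. Other spellings and sites beyond the window were not searched, so the 22 genes may still hold E2F-type sequence. The CHR motif (TTTGAA or TTCGAA), another cell cycle element, was in 3 of the 30 windows, beside 19.2% of all windows, 13.6% of windows of tested genes and 9 of the 20 windows of proliferation markers. Windows of the 4 genes whose rise held with each library left out are shown first, with no match to the searched spellings. Windows of 3 genes with the motif that were not called follow, with the motif in capitals as it reads on the strand shown.
Blm (chr7:80534949-80535248, minus strand): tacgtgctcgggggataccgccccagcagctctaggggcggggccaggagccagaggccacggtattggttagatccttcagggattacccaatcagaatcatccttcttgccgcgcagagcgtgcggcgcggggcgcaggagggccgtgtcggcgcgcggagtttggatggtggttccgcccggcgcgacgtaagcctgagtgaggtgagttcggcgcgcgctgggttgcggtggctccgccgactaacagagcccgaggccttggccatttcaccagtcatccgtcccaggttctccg
Fanci (chr7:79392088-79392387, plus strand): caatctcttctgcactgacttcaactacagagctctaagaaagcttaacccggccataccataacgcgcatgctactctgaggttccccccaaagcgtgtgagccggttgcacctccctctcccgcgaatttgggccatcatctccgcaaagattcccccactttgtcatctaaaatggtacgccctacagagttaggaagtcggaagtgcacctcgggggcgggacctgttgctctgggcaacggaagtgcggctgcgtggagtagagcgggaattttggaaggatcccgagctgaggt
Rad54l (chr4:116123641-116123940, minus strand): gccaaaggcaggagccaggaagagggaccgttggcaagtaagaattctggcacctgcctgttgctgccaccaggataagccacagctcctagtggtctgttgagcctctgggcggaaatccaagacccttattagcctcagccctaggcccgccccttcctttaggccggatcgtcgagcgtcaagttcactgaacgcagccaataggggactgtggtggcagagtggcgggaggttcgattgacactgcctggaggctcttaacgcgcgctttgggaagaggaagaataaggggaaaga
Fancm (chr12:65075353-65075652, plus strand): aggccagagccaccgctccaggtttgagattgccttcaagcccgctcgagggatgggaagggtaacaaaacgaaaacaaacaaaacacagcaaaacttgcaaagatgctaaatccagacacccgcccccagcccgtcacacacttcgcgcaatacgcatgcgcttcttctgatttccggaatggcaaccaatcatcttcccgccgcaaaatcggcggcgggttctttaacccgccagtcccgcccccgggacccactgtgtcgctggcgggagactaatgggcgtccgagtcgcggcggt
Brca2 (chr5:150522371-150522670, plus strand): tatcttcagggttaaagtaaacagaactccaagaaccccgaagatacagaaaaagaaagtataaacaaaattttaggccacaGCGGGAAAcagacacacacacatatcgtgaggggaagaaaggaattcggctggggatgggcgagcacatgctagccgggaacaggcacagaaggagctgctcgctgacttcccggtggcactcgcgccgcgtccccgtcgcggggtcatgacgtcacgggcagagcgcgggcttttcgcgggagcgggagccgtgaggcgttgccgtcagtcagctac
Chek2 (chr5:110839733-110840032, plus strand): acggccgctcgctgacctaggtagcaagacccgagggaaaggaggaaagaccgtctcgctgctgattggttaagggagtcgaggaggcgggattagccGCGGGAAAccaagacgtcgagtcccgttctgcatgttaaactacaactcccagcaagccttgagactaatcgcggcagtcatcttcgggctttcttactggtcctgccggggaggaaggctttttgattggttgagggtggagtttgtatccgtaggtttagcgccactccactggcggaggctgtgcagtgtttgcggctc
Fancg (chr4:43010252-43010551, minus strand): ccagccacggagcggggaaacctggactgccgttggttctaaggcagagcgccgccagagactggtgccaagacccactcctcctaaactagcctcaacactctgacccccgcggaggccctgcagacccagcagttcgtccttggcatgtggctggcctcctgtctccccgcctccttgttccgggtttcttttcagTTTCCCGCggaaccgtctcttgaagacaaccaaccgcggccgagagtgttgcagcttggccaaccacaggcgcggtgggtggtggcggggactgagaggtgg
The motif's first base lay 168 bases before the start site in Brca2, 152 in Chek2 and 52 in Fancg. Such a match is a spelling of letters in a window and not a measured site.

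Genes that cut back and dissolve joined DNA held the largest rise of the set. Of 6, 2 rose and none fell, with a median log2 fold change of 0.16. Blm (ENSMUSG00000030528, chr7:80454733-80535119, minus strand) encodes the Bloom helicase, which takes apart double Holliday junctions and helps in long-range end trimming. It had 17.9, 19.4 and 16.0 CPM in MOSE-NEO and 27.1, 30.0 and 31.2 CPM in MOSE-PAX8. The 3 PAX8 libraries lay well above the 3 NEO libraries. The level rose 1.66-fold (95% interval 1.41 to 1.94, log2 fold change 0.73 ± 0.10 SE, edgeR adjusted p = 0.000721, n = 3 per line).

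Exo1 (ENSMUSG00000039748, chr1:175880581-175913489, plus strand), the exonuclease that lengthens the single-stranded tail, had 33.8, 38.7 and 33.5 CPM in MOSE-NEO. In MOSE-PAX8 it had 43.7, 44.9 and 44.4 CPM, which were nearly equal to each other and all above the reference. It rose 1.26-fold (1.10 to 1.43, edgeR adjusted p = 0.0143). With each library left out in turn the adjusted p ran from 0.0117 to 0.0535, the latter without replicate 3 of MOSE-PAX8.

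The MRE11, RAD50 and NBN proteins form the complex that first senses and clips a broken end. Mre11a, the nuclease, was the most abundant member per length of exon and had 99.98, 100.3 and 99.2 CPM in MOSE-NEO and 98.1, 90.1 and 91.1 CPM in MOSE-PAX8. Those 2 sets of libraries did not overlap, but the log2 fold change of -0.10 ± 0.07 was not called (edgeR adjusted p = 0.304, fold interval 0.837 to 1.04). Rad50 had a log2 fold change of -0.05 (fold interval 0.843 to 1.11) and Nbn one of 0.18 (0.979 to 1.31), neither called. Rbbp8, which encodes the resection factor CtIP, ranged from 73.4 to 79.8 CPM in MOSE-NEO and from 82.8 to 87.6 CPM in MOSE-PAX8. Its libraries did not overlap either, and its log2 fold change of 0.14 ± 0.07 was not called (edgeR adjusted p = 0.174).

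Among the BRCA mediators, which prepare the single strand for pairing, 1 of 5 rose and all 5 log2 fold changes were above 0, with a median of 0.21. Palb2 (ENSMUSG00000044702, chr7:122107262-122132985, minus strand), the protein that joins BRCA1 to BRCA2, had 5.56, 4.52 and 4.98 CPM in MOSE-NEO and 6.37, 7.54 and 8.11 CPM in MOSE-PAX8. The lines did not overlap, although the lowest PAX8 library lay close to the highest NEO library. It rose 1.46-fold (1.15 to 1.85, log2 fold change 0.54 ± 0.15 SE, edgeR adjusted p = 0.0223). Leaving out a library gave adjusted p-values from 0.0222 to 0.0978 and a call in 2 of 6 such fits.

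Brca1, the ubiquitin ligase that opens the way to recombination, had 74.9, 71.1 and 57.2 CPM in MOSE-NEO and 73.7, 84.2 and 72.7 CPM in MOSE-PAX8. The lines overlapped, and the log2 fold change of 0.18 ± 0.11 was not called (edgeR adjusted p = 0.245, fold interval 0.953 to 1.35). Brca2, which binds the single strand with PALB2, had 33.4, 27.2 and 25.5 CPM in MOSE-NEO and 31.0, 38.3 and 30.4 CPM in MOSE-PAX8, with a log2 fold change of 0.21 ± 0.13 that was not called (edgeR adjusted p = 0.251). Bard1, the partner of BRCA1, came nearest to the threshold. Its libraries did not overlap, from 28.4 to 34.7 CPM against 36.0 to 42.6 CPM, and its log2 fold change was 0.29 ± 0.10 (edgeR adjusted p = 0.0582). It was called in 3 of 17 alternative fits. Brip1, the FANCJ helicase, had a log2 fold change of 0.13 ± 0.08 (edgeR adjusted p = 0.256).

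Of the 5 paralogue-complex genes (Rad51b, Rad51c, Rad51d, Xrcc2 and Xrcc3), whose proteins act together in recombination, Rad51b rose, Rad51d fell and 3 were not called. Rad51d (ENSMUSG00000018841, chr11:82876434-82890614, minus strand) had 34.1, 35.9 and 35.2 CPM in MOSE-NEO and 26.4, 26.9 and 27.9 CPM in MOSE-PAX8. Replicates of each line lay close together and the lines were far apart. The level fell 1.29-fold (log2 fold change -0.37 ± 0.07 SE, edgeR adjusted p = 0.00468). Its adjusted p ran from 0.00827 to 0.023 with a library left out. Rad51b (ENSMUSG00000059060, chr12:79297282-79814690, plus strand) had 3.91, 4.35 and 3.78 CPM in MOSE-NEO and 4.73, 6.32 and 6.72 CPM in MOSE-PAX8. One PAX8 library lay near the reference, and the others were higher. It rose 1.48-fold (1.12 to 1.94, edgeR adjusted p = 0.0357), with adjusted p-values from 0.0167 to 0.144 when a library was left out. It was called in 1 of those 6 fits.

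Rad51c and Xrcc2 had log2 fold changes of 0.19 ± 0.13 and 0.21 ± 0.11 and were not called (edgeR adjusted p = 0.277 and 0.185). Xrcc3 varied more within a line than between lines. It had 14.0, 8.65 and 7.04 CPM in MOSE-NEO and 7.03, 13.8 and 7.64 CPM in MOSE-PAX8, so the lincRNA-rich library of each line held about as much as the other. Its log2 fold change of -0.07 ± 0.34 allowed a fold anywhere from 0.553 to 1.65.

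Of the 4 genes listed for strand exchange, 1 rose. Rad54l (ENSMUSG00000028702, chr4:116094264-116123690, minus strand), the RAD54 motor protein that drives strand invasion, had 13.8, 13.7 and 11.4 CPM in MOSE-NEO and 17.4, 21.9 and 19.4 CPM in MOSE-PAX8. All PAX8 libraries lay above all NEO libraries. It rose 1.51-fold (1.25 to 1.83, log2 fold change 0.60 ± 0.12 SE, edgeR adjusted p = 0.00476). The related Rad54b had a log2 fold change of 0.20 ± 0.19 (edgeR adjusted p = 0.467). Rad51ap1, which promotes strand pairing, had one of 0.21 ± 0.10 (edgeR adjusted p = 0.159), and the annealing factor Rad52 one of -0.03 ± 0.13 (edgeR adjusted p = 0.906). These 3 overlapped between the lines.

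**Figure D2:**
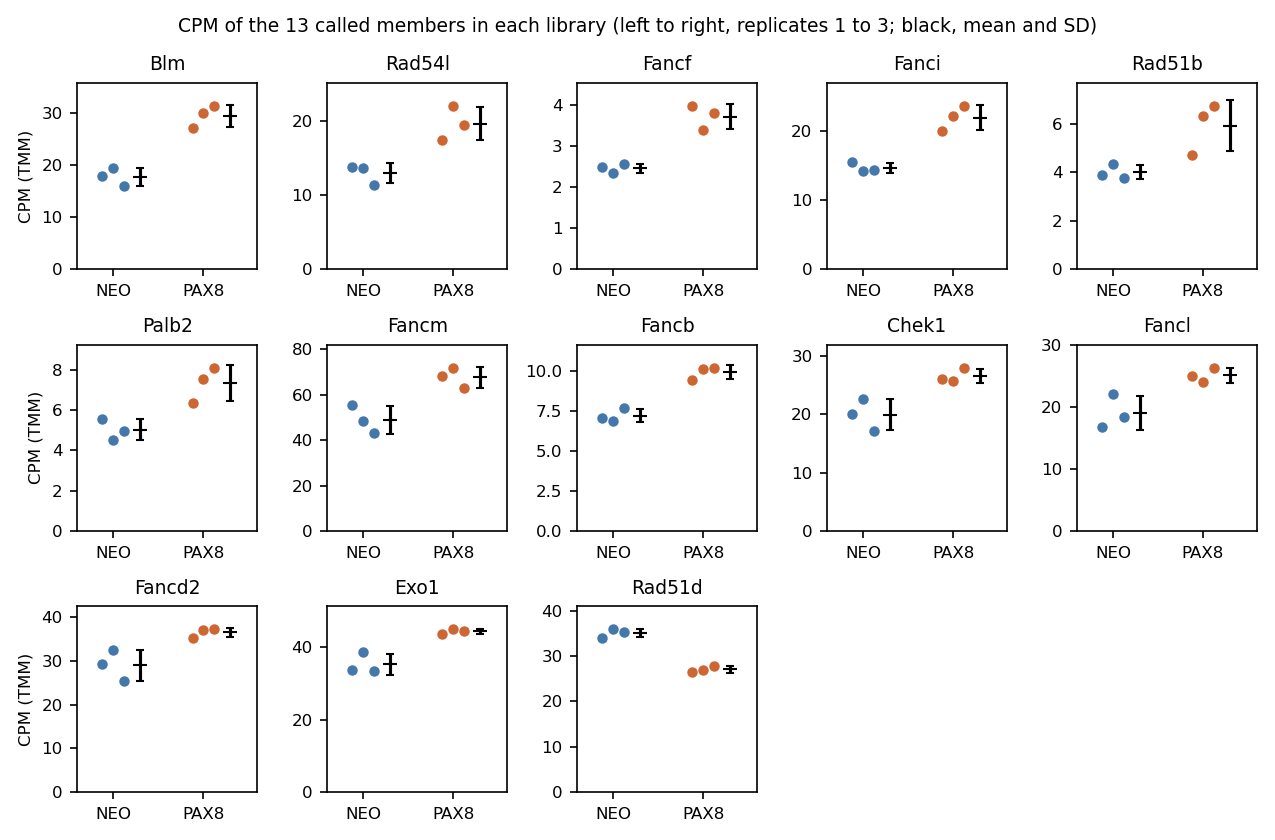
CPM of the 13 called genes in each library, with the linear axis starting at 0, 1 point per library (replicates 1 to 3 from left to right) and the mean and SD of 3 libraries in black. In each panel the lines do not overlap; Blm goes from a mean of 17.8 to 29.4 CPM and Rad51d from 35.04 to 27.1 CPM.

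The Fanconi core complex, the ligase of the crosslink pathway, had 4 of 8 members higher and none lower, with a median log2 fold change of 0.43 (0.10 to 0.62). Fancm (ENSMUSG00000055884, chr12:65075603-65132058, plus strand), encodes the translocase that anchors the complex on DNA. It had 55.4, 48.4 and 43.0 CPM in MOSE-NEO and 68.1, 71.9 and 62.9 CPM in MOSE-PAX8, without overlap. It rose 1.38-fold (1.18 to 1.62, log2 fold change 0.47 ± 0.10 SE, edgeR adjusted p = 0.00767). Fancl (ENSMUSG00000004018, chr11:26386135-26471876, plus strand) encodes the ubiquitin ligase subunit itself. It had 16.7, 22.1 and 18.4 CPM in MOSE-NEO and 25.0, 23.9 and 26.3 CPM in MOSE-PAX8, with the highest NEO library close to the lowest PAX8 library. It rose 1.32-fold (1.10 to 1.57, edgeR adjusted p = 0.0235) and was called in 2 of the 6 fits that left out a library (adjusted p 0.00948 to 0.0851).

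Fancb (ENSMUSG00000047757, chrX:164980592-164997272, plus strand), on the X chromosome, is part of the catalytic module with FANCL. It had 7.02, 6.87 and 7.64 CPM in MOSE-NEO and 9.38, 10.1 and 10.2 CPM in MOSE-PAX8, all higher than the reference. It rose 1.38-fold (1.15 to 1.64, log2 fold change 0.46 ± 0.11 SE, edgeR adjusted p = 0.0131). Its adjusted p with a library left out ran from 0.02 to 0.0587, the latter without replicate 3 of MOSE-PAX8. Fancf (ENSMUSG00000092118, chr7:51860577-51862267, minus strand), encodes an adaptor that holds the complex together. It had 2.48, 2.35 and 2.56 CPM in MOSE-NEO and 3.97, 3.39 and 3.79 CPM in MOSE-PAX8, without overlap. It rose 1.51-fold (1.15 to 1.98, edgeR adjusted p = 0.0263) and had the least secure call, held in 6 of 17 alternative fits and in 1 of the 6 that left out a library (adjusted p 0.0371 to 0.0921). In DESeq2 its adjusted p was 0.0532.

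Fancc, another core subunit and the lowest member per length of exon, had 2.67, 2.17 and 1.33 CPM in MOSE-NEO and 2.68, 3.46 and 3.33 CPM in MOSE-PAX8. The libraries touched without overlapping, and the log2 fold change of 0.62 ± 0.27 was not called (edgeR adjusted p = 0.114, fold interval 1.00 to 2.34). Fanca, also a core subunit, had 34.4, 27.6 and 21.5 CPM in MOSE-NEO and 24.0, 40.0 and 25.8 CPM in MOSE-PAX8. As for Xrcc3, the lincRNA-rich library was the highest of its line, and the log2 fold change of 0.10 ± 0.24 was not called (edgeR adjusted p = 0.779). Fance and Fancg, other subunits, had log2 fold changes of 0.14 ± 0.10 and 0.16 ± 0.18 (edgeR adjusted p = 0.348 and 0.54).

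Both members of the pair that the core complex marks with ubiquitin rose, while the nuclease recruited to it did not. Fanci (ENSMUSG00000039187, chr7:79391929-79450264, plus strand) had 15.5, 14.2 and 14.3 CPM in MOSE-NEO and 20.0, 22.2 and 23.5 CPM in MOSE-PAX8, far apart beside the spread of each line. It rose 1.49-fold (1.28 to 1.73, log2 fold change 0.58 ± 0.10 SE, edgeR adjusted p = 0.0018). Fancd2 (ENSMUSG00000034023, chr6:113531682-113597017, plus strand) had 29.3, 32.4 and 25.3 CPM in MOSE-NEO and 35.1, 37.0 and 37.1 CPM in MOSE-PAX8, without overlap but with a wide reference. It rose 1.26-fold (1.07 to 1.47, log2 fold change 0.33 ± 0.10 SE, edgeR adjusted p = 0.0313). It was called in 1 of the 6 fits that left out a library (adjusted p 0.019 to 0.0994). Fan1, a nuclease that the ubiquitinated pair recruits, had 11.95, 9.91 and 9.26 CPM in MOSE-NEO and 9.02, 8.99 and 8.69 CPM in MOSE-PAX8. Its log2 fold change of -0.22 ± 0.13 was not called (edgeR adjusted p = 0.211).

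Among the checkpoint kinases, which halt the cycle when DNA is damaged, 1 of 4 rose. Chek1 (ENSMUSG00000032113, chr9:36708482-36727065, minus strand), the kinase that acts behind ATR at stalled forks, had 20.0, 22.6 and 17.2 CPM in MOSE-NEO and 26.0, 25.7 and 28.0 CPM in MOSE-PAX8. The lines did not overlap. It rose 1.33-fold (1.12 to 1.58, log2 fold change 0.42 ± 0.11 SE, edgeR adjusted p = 0.0173). With a library left out the adjusted p ran from 0.0105 to 0.0671, the latter without replicate 3 of MOSE-PAX8. Atm, the kinase of double-strand breaks, had 73.5, 53.3 and 48.7 CPM in MOSE-NEO and 60.3, 72.6 and 55.3 CPM in MOSE-PAX8. Its libraries overlapped, and its log2 fold change of 0.10 ± 0.17 was not called (edgeR adjusted p = 0.694). Atr and Chek2 had log2 fold changes of 0.11 ± 0.14 and 0.12 ± 0.10 (edgeR adjusted p = 0.578 and 0.426).

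Single libraries moved many members at once. Summed CPM of the 35 genes was 1024, 983.5 and 881.2 in MOSE-NEO and 1046, 1142 and 1066 in MOSE-PAX8, which put each PAX8 library above each NEO library by a small margin. Mki67, the proliferation antigen, had 223.9, 197.4 and 130.5 CPM in MOSE-NEO and 212.5, 321.1 and 220.1 CPM in MOSE-PAX8, so the lowest and the highest library were the same ones as for the members' sum. Other cell cycle genes did not share that order. The median log2 level of the proliferation markers, relative to their MOSE-NEO means, was lowest in replicate 1 of MOSE-NEO (-0.086). It was highest in replicate 3 of MOSE-PAX8 (0.34), and Pcna was lowest and highest in these same libraries. Of the members, 15 (42.9%) were highest in the lincRNA-rich library of both lines, beside 23.8% of tested genes. Xrcc3, Fanca, Rad54b, Fancg, Atm and Atr were among them. The part of the lincRNA share and of Mki67 in these members' values was not tested.

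**Figure D3:**
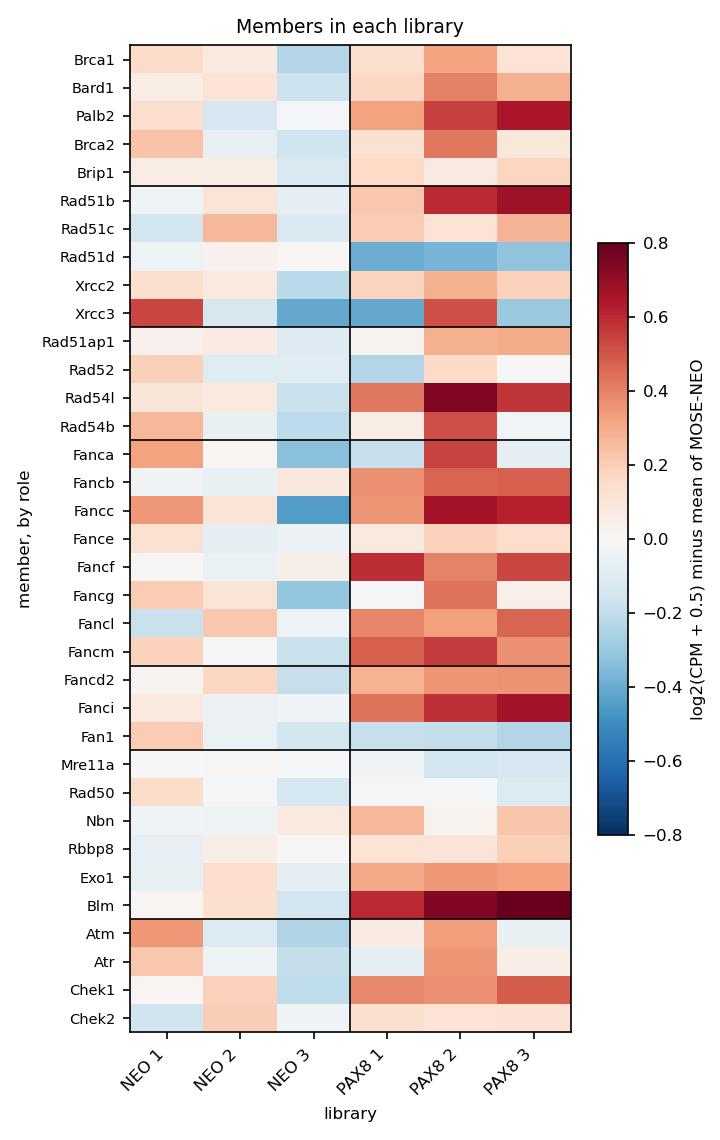
Log2(CPM + 0.5) of each member in each library minus its mean over the 3 MOSE-NEO libraries, with rows by role and red above that mean. Red fills most of the PAX8 columns and Rad51d is blue in all 3 of them. Within their own rows, Xrcc3 and Fanca are deepest red in NEO 1 and PAX8 2.

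Levels were compared between genes per kilobase of exon, as RPKM (CPM divided by exon length) from the union of annotated exons. That union ran from 1691 bases in Fancf to 23629 in Atr. Where the expressed transcript is shorter than the union, RPKM is too low, and the overlap of libraries does not measure this. In MOSE-NEO the mean ran from 0.246 RPKM for Fancc to 16.8 RPKM for Mre11a. Next below Mre11a came Rad50 at 13.004 RPKM and Chek2 at 9.46 RPKM, each without overlap with the gene above it. Chek2, Nbn and Rad51d, at 9.43 to 9.46 RPKM, could not be told apart by their libraries. Brca1 followed at 7.94 RPKM and Rbbp8 at 6.14 RPKM, again without overlap. In the middle of the order, neighbouring genes overlapped from Rbbp8 down to Exo1 and from Rad51ap1 down to Rad54b. At the bottom Rad51b (1.07 RPKM), Palb2 (0.684 RPKM) and Fancc were each separate from the next. The order changed little in MOSE-PAX8, where Mre11a and Rad50 stayed first and second and Palb2 and Fancc last. Blm went from rank 28 to 22, Fanci from 23 to 19, Fancl from 10 to 6, and Rad51d from 5 to 7.

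**Figure D4:**
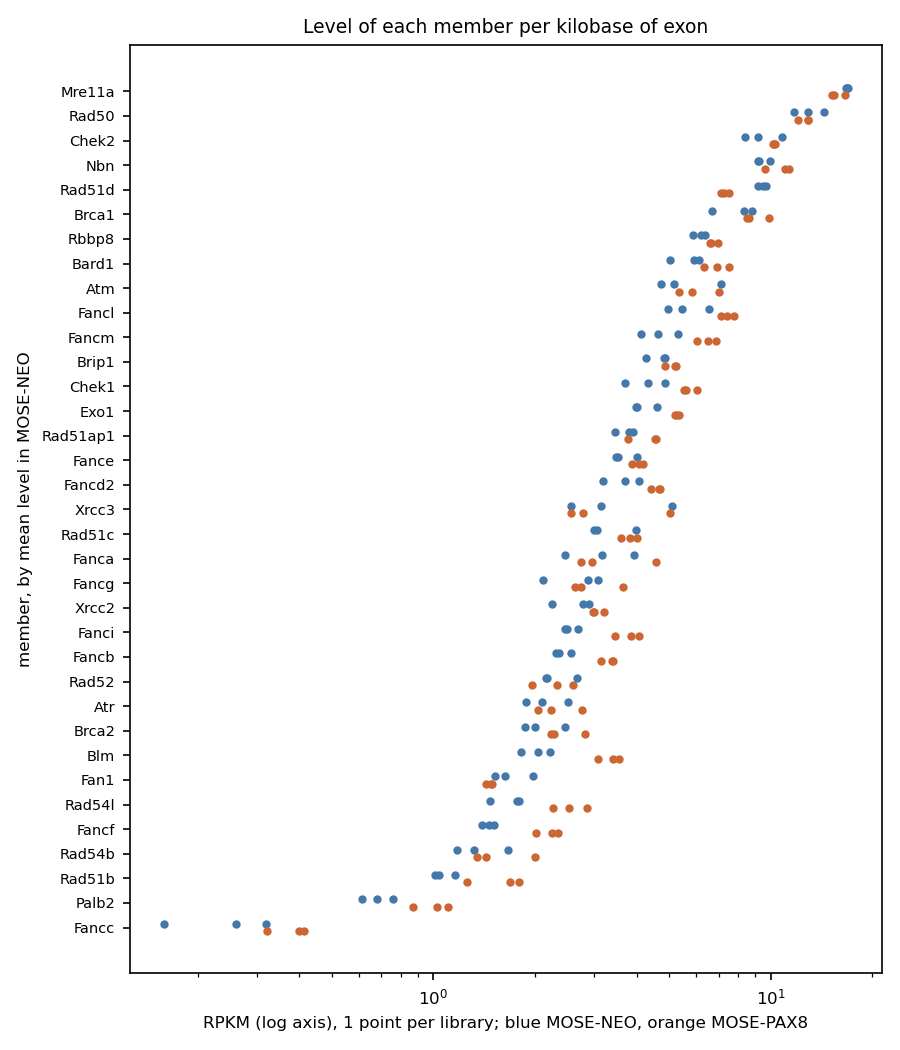
RPKM of each member on a log axis, 1 point per library, ordered by the mean in MOSE-NEO (blue) with MOSE-PAX8 in orange. Mre11a is highest at a mean of 16.8 RPKM in MOSE-NEO and Fancc lowest at 0.246 RPKM; the orange points of Blm, Rad54l and Fanci lie clear to the right of the blue.

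Position on the chromosome went with some of these values. On chromosome 7, 4 of 5 members rose (Blm, Fanci, Palb2 and Fancf), and the median log2 fold change of its 909 tested genes was 0.27. On chromosome 12 that median was 0.19, and 2 of 3 members rose (Rad51b and Fancm). The share of each chromosome's tested genes called higher was not counted here, so these member counts stand without a background. With the median of tested genes within 5 Mb to each side removed, 9 members were higher and 2 lower. Over all 12313 tested genes, 1752 were higher and 1627 lower in that fit. Palb2, Rad51b, Fancf and Fancd2 were then not called, and Bard1 (higher) and Fan1 (lower) were. The log2 fold change went from 0.54 to 0.22 in Palb2, from 0.56 to 0.37 in Rad51b and from 0.33 to 0.23 in Fancd2. That of Fancf went only from 0.59 to 0.49 (edgeR adjusted p = 0.0645). Blm kept a log2 fold change of 0.50 (edgeR adjusted p = 0.00629) and Fanci one of 0.34 (edgeR adjusted p = 0.0274) after that step. Over all 17 alternative fits the adjusted p of Blm ran from 1.65e-07 to 0.246 and that of Fanci from 0.000102 to 1.0, both highest in the test against a fold of 1.5.

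Many of these genes share a start region or exons with a neighbour. A coding gene began within 1000 bases on the other strand for 13 members, and 12 of those neighbours were tested. Dctn5, a dynactin subunit that starts 56 bases from Palb2, went from 43.6 to 51.8 CPM (log2 fold change 0.25, edgeR adjusted p = 0.0341), and it was the only pair called the same way. Nbr1, an autophagy receptor gene that starts 194 bases from Brca1, went the other way from its uncalled partner, from 399.4 to 328.0 CPM (log2 fold change -0.28, edgeR adjusted p = 0.02). Neighbours of other members that rose, such as Pomgnt1 beside Rad54l and Emc3 beside Fancd2, were not called. Exons of 6 members overlapped another counted gene over more than 10% of their length. The pairs were Rad54l with Lrrc41 (15.4%), Rad54b with Fsbp on the same strand (35.8%), Fanca with Zfp276 (10.5%), Fancf with Gas2 (14.96%), Fancl with Vrk2 (13.7%) and Fanci with Polg (16.0%). None of these partners was called, and since the strand setting of the counting was not given in the sources used here, the split of reads between them is uncertain.

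Other genes of the same pathway went both ways. Of 49 further recombination and Fanconi genes tested, 8 rose (16.3%) and 5 fell (10.2%), beside 17.9% and 16.1% of all tested genes. Their median log2 fold change was 0.08. Rmi2, a partner of the Bloom helicase, rose 2.21-fold from 1.37 ± 0.13 to 3.03 ± 0.14 CPM (SD, n = 3, edgeR adjusted p = 0.00234). Mcm8, a helicase subunit of recombination, rose 1.35-fold (edgeR adjusted p = 0.00372). Faap20, which tethers the Fanconi core complex, fell 1.46-fold from 24.6 ± 1.69 to 16.8 ± 0.39 CPM (edgeR adjusted p = 0.00144), and Zswim7, a recombination factor, fell 1.48-fold (edgeR adjusted p = 0.00597). Of 19 checkpoint partners, 3 rose (15.8%) and none fell. Among those that rose were the mitotic brake Wee1 (1.44-fold, edgeR adjusted p = 0.0015) and Rad9a of the checkpoint clamp (1.34-fold, edgeR adjusted p = 0.00378). Wee1, on chromosome 7, had a log2 fold change of 0.52 beside a median of 0.32 in tested genes within 5 Mb.

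In the other repair pathways the medians lay nearer to 0 than that of the members, except in mismatch repair. The share called higher was 42.9% in mismatch repair and 5.56% to 12.5% in the others, beside 17.9% of all tested genes. The share called lower ran from 11.1% to 30.0% over these lists, beside 16.1% of all tested genes. Of 7 mismatch repair genes, 3 rose and 1 fell, with a median of 0.21: Msh3 rose 1.33-fold (edgeR adjusted p = 0.0061) and Msh6 fell 1.19-fold (edgeR adjusted p = 0.0486). End joining had 1 higher and 2 lower of 15 (median -0.03). There Polq, of the backup pathway, rose 1.49-fold (edgeR adjusted p = 0.0273), and Shld2 of shieldin and Xrcc5, which encodes Ku80, fell 1.74-fold and 1.26-fold (edgeR adjusted p = 0.000427 and 0.013). Nucleotide excision repair had 2 higher and 2 lower of 16 (median -0.04). The helicase subunit Ercc2 rose 1.69-fold (edgeR adjusted p = 0.00293) and Gtf2h4 rose 1.29-fold (edgeR adjusted p = 0.011), while Ercc6 fell 2.03-fold (edgeR adjusted p = 0.000602) and Ercc5 fell 1.40-fold (edgeR adjusted p = 0.00135). Base excision repair had 1 higher and 2 lower of 18 (median -0.03): the uracil glycosylase Ung rose 1.24-fold (edgeR adjusted p = 0.0494), and Mpg and Parp2 fell 1.49-fold and 1.33-fold (edgeR adjusted p = 0.00837 and 0.0244). Translesion synthesis had 1 higher and 3 lower of 10 (median -0.03), with the ligase Rad18 higher by 1.46-fold (edgeR adjusted p = 0.00363) and the polymerases Polk and Rev1 lower by 1.44-fold and 1.32-fold (edgeR adjusted p = 0.00349 and 0.0115). Several of these genes lay where tested genes within 5 Mb had shifted too. The log2 fold change was 0.76 in Ercc2 beside a local median of 0.71, -1.02 in Ercc6 beside -0.51, -0.80 in Shld2 beside -0.51, and -0.41 in Parp2 beside -0.44. Differences between the lists were not tested.

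Cell cycle genes were measured in the same fit. Over all tested genes 17.9% were called higher and 16.1% lower. The share called higher was 39.1% of proliferation markers and 33.3% of E2F and pocket protein genes. The share called lower was 11.1% of E2F and pocket protein genes and 61.1% of p53 targets. Of 23 proliferation markers, 9 rose and none fell (median 0.26), with Mcm2 and Mcm7 of the replication helicase higher by 1.29-fold and 1.26-fold (edgeR adjusted p = 0.0114 and 0.0132). Pcna, the replication clamp, had 102.7, 123.8 and 116.6 CPM in MOSE-NEO and 142.2, 118.7 and 145.3 CPM in MOSE-PAX8. Of 18 E2F and pocket protein genes, 6 rose and 2 fell (median 0.11): E2f6 and Lin9 were higher by 1.29-fold and 1.28-fold (edgeR adjusted p = 0.006 and 0.00737), and Tfdp2 and Rb1 were lower by 1.49-fold and 1.46-fold (edgeR adjusted p = 0.000681 and 0.000698). Rb1, with a log2 fold change of -0.54, lay where the median of tested genes within 5 Mb was -0.47. Of 18 targets of the damage-response factor p53, none rose and 11 fell (median -0.43), with the cycle inhibitor Cdkn1a lower by 4.29-fold from 156.4 ± 15.2 to 36.5 ± 1.78 CPM (edgeR adjusted p = 1.76e-06) and Perp lower by 2.502-fold (edgeR adjusted p = 1.64e-05). Meiotic recombination genes were mostly under the filter: 4 of 14 were tested and 2 fell, Msh5 from 4.71 to 1.55 CPM (edgeR adjusted p = 0.0326) and Hormad2 from 0.616 to 0.249 CPM (edgeR adjusted p = 0.036). Msh5 had 7.37, 3.91 and 2.86 CPM in MOSE-NEO and 1.07, 2.58 and 1.02 CPM in MOSE-PAX8, highest in the lincRNA-rich library of each line. Hormad2 had only 14 to 23 counts per library in MOSE-NEO and 5 to 11 in MOSE-PAX8. The part of these genes' changes in the members' values was not tested.

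**Figure D5:**
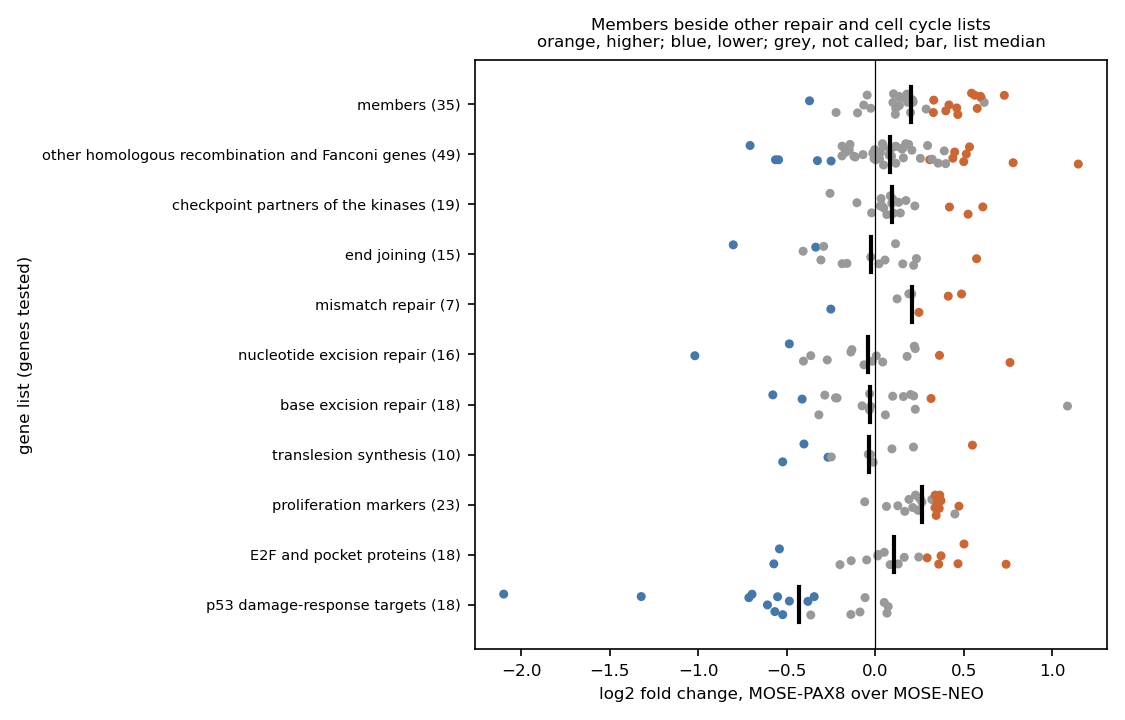
Log2 fold change of MOSE-PAX8 over MOSE-NEO for each tested gene of the set and of 10 other lists, with orange called higher, blue called lower, grey not called and a black bar at each list's median. The set's median of 0.20 lies between 0.26 for proliferation markers and 0.08 for other genes of the pathway, and turns to -0.06 relative to the proliferation markers; of the lists drawn, which leave out the meiotic genes, the p53 targets lie lowest at -0.43.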

How the data were processed

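Each library came with a table of raw counts per Ensembl gene. Per the submitters' processing notes, the authors made these counts with cutadapt 1.13, STAR, HTSeq 0.6.1p1 and DESeq2 on mm10. Gene annotation, strand setting and treatment of multi-mapping reads were not given in the sources used here, so genes with near copies or overlapping exons are uncertain. Symbols and positions came from GENCODE M21 (GRCm38), which matched 24991 of 25006 identifiers. Genes passing edgeR's filterByExpr were fitted in edgeR 4.0.16 (R 4.3.3) with TMM factors and a robust quasi-likelihood test over all 6 libraries with line as the only term. P-values were adjusted by Benjamini-Hochberg over 12313 genes, and calls were made under an adjusted p of 0.05. CPM used TMM-scaled library sizes, fold intervals are 95% intervals, and RPKM used the union of GENCODE exons. DESeq2 1.42.0, limma 3.58.1 (voom), RLE and upper-quartile factors, other filters, a fold-1.5 test, a replicate block, the 2 offsets (local chromosome median and proliferation markers) and left-out libraries were the alternatives. The fit was tested on simulated data. Named genes were all 35 members, with values in each library for called ones, and up to 2 called genes per direction in each other list, with some not reported here; further members' library values and the genes of the neighbour and exon pairs were added to that. Members and lists were chosen with earlier results of these data known. No label describes the 3 libraries of each line as separate cultures; p-values then cover only library-to-library spread, which may be technical.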

Additional observations from a re-analysis of the deposited data

How the results depend on the processing

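The 12 higher members and 1 lower member became 3 and 4 relative to proliferation markers, with 6360 genes called (1175 higher and 5185 lower, against 2208 and 1981 of 4189). In a test against a fold of 1.5 none was called in either direction, with 1068 genes called, so the members' changes were not shown to exceed that fold. Without the lincRNA-rich pair 4 members were higher, with a median log2 fold change over the 35 of 0.19 against 0.20, and with the local chromosome median removed 2 were lower. Over all genes, 1848 of 12277 were higher without the pair, and 1627 of 12313 were lower with the local median removed. Leaving out each library in turn gave 4 to 9 higher members, beside 1575 to 2087 higher genes in all. DESeq2, limma-voom, RLE, upper-quartile and both other filters gave 11 to 13 higher members and 1 lower. The offset from proliferation markers lowers each gene by the same amount, so members between 0 and that offset turn negative by construction, to -0.0801 in Brca1, -0.0529 in Brca2, -0.13 in Brip1, -0.0702 in Rad51c, -0.0491 in Xrcc2, -0.0537 in Rad51ap1, -0.0639 in Rad54b, -0.16 in Fanca, -0.13 in Fance, -0.11 in Fancg, -0.0844 in Nbn, -0.13 in Rbbp8, -0.16 in Atm, -0.15 in Atr and -0.15 in Chek2. Without the lincRNA-rich pair Rad50 turned to 0.0079. With single libraries left out, log2 fold changes spanned 0 in Xrcc3 (-0.43 to 0.27), Rad52 (-0.12 to 0.0767), Rad50 (-0.11 to 0.0267), Fanca (-0.16 to 0.28), Atm (-0.0177 to 0.29), Atr (-0.0201 to 0.23) and Fancg (-0.0025 to 0.27).

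Same-numbered libraries did not deviate together (correlations -0.465, 0.054 and 0.402 across genes), so the numbers were not taken as pairs. With the replicate block 11 members were higher, 1 was lower and 4064 genes were called, and Fancf was the call lost.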
